A study of Mus musculus with 25 samples.

Results

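The genes described here are 30 genes for cardiac potassium, sodium and pacemaker channels, their accessory subunits and the main ventricular gap junction protein. They were taken as the rows of the deposited count table whose Ensembl identifiers map to the listed mouse symbols, 30 of 56941 genes. The study's title concerns lactate import into mitochondria, and RNA was sequenced from 25 mouse hearts of 2 genotypes, WT and MCT1KO (Slc16a1 encodes MCT1, a monocarboxylate transporter), and 3 treatments. The groups were WT without a pump (n = 4), MCT1KO without a pump (n = 3), WT with saline (n = 6), MCT1KO with saline (n = 4), WT with Ang/PE (n = 3) and MCT1KO with Ang/PE (n = 5). The labels give the tissue as heart and do not state age, sex, strain, dose, duration, what the pump is, how the knockout was made or in which cells, or whether hearts came from separate litters, so p-values measure only the spread between these samples. The label of the gene set covers more than pore-forming potassium and sodium channels. It holds Abcc9, a regulatory subunit of an ATP-sensitive channel, Kcnip2, a cytosolic calcium-binding partner, the mixed-cation pacemaker channels Hcn2 and Hcn4, Scn4b, an accessory subunit of sodium channels, and Gja1, a gap junction gene.

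Potassium channels repolarize the cardiomyocyte after each action potential. In mice, whose heart beats fast and whose ventricular action potential is short, the transient outward and delayed rectifier currents do most of this work, inward rectifiers hold the resting potential, and ATP-sensitive channels couple membrane excitability to the energy state of the cell. Pacemaker channels carry an inward current at negative potentials, and lower transcript levels of repolarizing channels are a known feature of hypertrophied and failing hearts.

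Library totals lay between 12216704 and 24880683 counts. Levels are given in CPM, a gene's counts scaled by library size after a correction for library composition. Slc16a1 itself ranged from 150.3 to 249.0 CPM in the 13 WT hearts and from 132.3 to 223.1 CPM in the 12 hearts labelled MCT1KO. Its mean was 203 ± 36.8 CPM in WT and 199.8 ± 29.6 CPM in MCT1KO hearts without a pump (SD, n = 4 and 3), 199 ± 29.9 and 158 ± 26.0 CPM with saline (SD, n = 6 and 4), and 214 ± 10.6 and 189.8 ± 21.9 CPM with Ang/PE (SD, n = 3 and 5). The mean was thus somewhat lower in MCT1KO under each treatment, with overlapping hearts, and edgeR called no gene between genotypes under any treatment, so the genotype below is that of the label. The 7 ventricular cardiomyocyte markers summed to between 29216 and 63544 CPM in every heart. They summed to 29216 to 52362 CPM in MCT1KO saline, 51237 to 63544 CPM in WT saline and 44477 to 59250 CPM in MCT1KO Ang/PE hearts. Between genotypes under saline, 2 of the 7 were lower in MCT1KO at an unadjusted p under 0.05 by edgeR, and 0 were called. Other content varied with the treatment groups. The summed level of 4 atrial muscle markers stayed between 1.56 and 5.87 CPM in all hearts without a pump and with Ang/PE and in the lowest hearts of both saline groups, but reached 1372 CPM in WT saline and 3813 CPM in MCT1KO saline hearts. Adipocyte markers (5 genes) reached 40.2 CPM in WT saline and 1447 CPM in MCT1KO saline hearts, against at most 1.32 CPM in every heart without a pump or with Ang/PE. MCT1KO saline replicate 4 had the highest atrial and adipocyte content of all 25 hearts. Xist, the female-specific transcript, exceeded 100 CPM in 13 hearts. These were 2 WT hearts and 0 MCT1KO hearts among those that had no pump, 1 WT and 3 MCT1KO saline hearts, and all 3 WT and 4 of the 5 MCT1KO Ang/PE hearts. Hearts with Xist were thus unevenly spread over the groups. A lower level in these bulk samples can mean fewer cells of a type or less RNA per cell, which cannot be told apart.

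Per kilobase of the longest annotated transcript, Gja1, the connexin of working myocardium, had the highest mean level over the 25 hearts at 130 CPM per kilobase (range 63.7 to 197). The tandem-pore background channel gene Kcnk3 followed at 82.6 (54.4 to 108), then Abcc9 at 78.7 (30.4 to 107), Kcnip2 at 62.7 (19.7 to 87.1) and the ATP-sensitive pore gene Kcnj11 at 49.4 (34.1 to 61.4) CPM per kilobase. The ranges of these neighbours overlapped, so the order among them is not resolved beyond the spread of hearts. The rapid delayed rectifier gene Kcnh2 lay at 24 and its slow counterpart Kcnq1 at 16.7 CPM per kilobase. At the low end were several genes better known from neurons: Kcna1 at 0.865, Kcnc1 at 0.420, Kcna2 at 0.418, the beta subunit gene Kcnab1 at 0.392 and Kcna6 at 0.338 CPM per kilobase. Their totals over all hearts lay between 743 counts (Kcnab1) and 2143 counts (Kcna2). Kcnk1, another tandem-pore channel gene, had 102 counts over all hearts and was the 1 gene of the 30 that did not pass the low-count filter, which left 29 for testing.

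**Figure D1:**
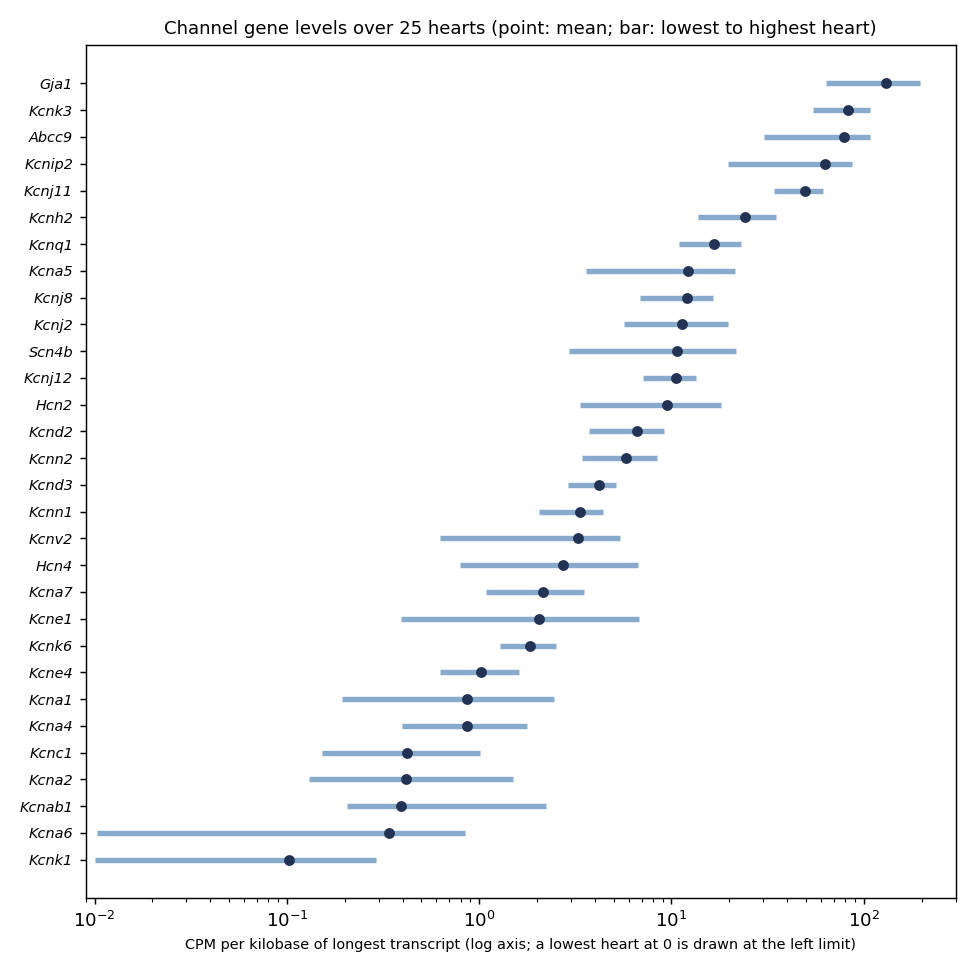
Mean level of the 30 genes over 25 hearts (point) with the lowest and highest heart (bar), in CPM per kilobase of the longest annotated transcript on a log axis. Gja1 is at the top at 130 and Kcnk1, at 0.103, is the gene left untested.

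Of the 29 tested genes, 4 changed in Ang/PE against saline hearts labelled MCT1KO and 1 of these also changed in Ang/PE against hearts without a pump of the same genotype. All 4 encode pore-forming subunits of delayed rectifier type channels with a low level in these hearts: Kcna1, Kcna2 and Kcna6, members of the Shaker family best known from axons, were lower, and Kcnc1, of the Shaw family known from fast-spiking neurons, was higher. A call here is an adjusted p below 0.05 from edgeR's quasi-likelihood test, with the Benjamini-Hochberg adjustment over all 17682 tested genes. In Ang/PE against saline MCT1KO hearts, 4.46% of all tested genes were called, 1.75% higher and 2.7% lower. In Ang/PE against no pump MCT1KO hearts the share was 0.503%. None of the 29 genes was called in the other 9 comparisons by this test. The genes were chosen with earlier results of these data known. Counts set beside the share of all genes, here and below, are therefore descriptions and not a test of the set. The number of genes whose groups did not overlap was 0 higher and 1 lower in Ang/PE against saline MCT1KO hearts, beside 3.06% and 2.36% of all genes, and 4 higher and 7 lower against MCT1KO hearts without a pump, beside 4.49% and 3.96%. In WT it was 2 higher and 7 lower against saline, beside 6.39% and 7.16%, and 0 higher and 2 lower against no pump, beside 3.63% and 7.07%.

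The promoters of the called genes are shown because 3 of them moved together and Kcnc1 moved the other way. For 22 of the 30 genes the RefSeq promoter table (build GRCm38.p6, which differs from the GRCm39 build named in the submitters' processing notes) had an entry, and it held no entry for Kcna1. The 250 bases before the start are given 5′ to 3′ on the gene's strand, with capitals for motifs found by a search of both strands. Kcna2 lies at chr3:107101317-107101566 (plus strand), Kcna6 at chr6:126740675-126740924 (minus strand) and Kcnc1 at chr7:46396218-46396467 (plus strand).
Kcna2 promoter: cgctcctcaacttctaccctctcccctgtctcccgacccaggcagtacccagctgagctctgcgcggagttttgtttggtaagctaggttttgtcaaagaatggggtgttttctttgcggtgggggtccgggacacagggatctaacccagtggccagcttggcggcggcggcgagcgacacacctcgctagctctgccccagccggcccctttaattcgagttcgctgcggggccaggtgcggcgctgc
Kcna6 promoter: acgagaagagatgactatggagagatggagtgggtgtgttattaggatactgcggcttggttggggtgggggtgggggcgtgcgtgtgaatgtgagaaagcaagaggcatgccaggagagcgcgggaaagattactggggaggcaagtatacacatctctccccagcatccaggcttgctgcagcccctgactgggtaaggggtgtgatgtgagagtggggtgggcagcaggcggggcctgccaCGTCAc
Kcnc1 promoter: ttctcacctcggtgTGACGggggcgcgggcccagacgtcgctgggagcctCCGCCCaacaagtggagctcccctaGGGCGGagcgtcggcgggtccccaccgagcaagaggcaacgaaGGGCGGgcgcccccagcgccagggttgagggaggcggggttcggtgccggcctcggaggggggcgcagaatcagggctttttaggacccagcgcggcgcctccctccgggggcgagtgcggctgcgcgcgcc
The motifs searched were the E-box CACGTG, the cyclic AMP response site core TGACG, the GC box GGGCGG, the TATA box TATAAA and the MEF2 site. Of 32851 promoters of this length, 6.02% hold the first, 17.8% the second, 32.7% the third, 12.4% the fourth and 3.2% the fifth. The Kcna2 promoter held none of these letters, Kcna6 held 1 TGACG (printed as its reverse complement) and Kcnc1 held 1 TGACG and 3 GGGCGG. GC content was 62.4% for Kcna2, 58.8% for Kcna6 and 74.4% for Kcnc1, against a median of 52.4% over all promoters. A match is a description of the letters in this window. Kcna5, Kcna1 and Kcna6 are consecutive protein-coding genes on chromosome 6, whereas Kcna2 is on chromosome 3.

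Kcna2 (ENSMUSG00000040724) was the gene with the lowest adjusted p among the 29. Without a pump, the WT hearts had 3.15, 4.11, 4.24 and 5.47 CPM and the MCT1KO hearts 5.91, 6.26 and 6.92 CPM. With saline, the WT hearts ranged from 4.39 to 6.88 CPM around a median of 5.65, and the MCT1KO hearts had 4.19, 5.17, 6.18 and 17.3 CPM. With Ang/PE, the WT hearts had 2.56, 2.59 and 2.64 CPM and the MCT1KO hearts 1.5, 1.55, 1.87, 2.23 and 2.79 CPM. All 8 Ang/PE hearts, at most 2.79 CPM, thus lay below all 17 other hearts, at least 3.15 CPM, in both genotypes. Such a separation was found for 0.0283% of all tested genes, 5 of 17682, and for no other of the 29.

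In MCT1KO hearts Kcna2 fell by 2.05 on the log2 scale against saline (SE 0.30, adjusted p = 0.00334 by edgeR's quasi-likelihood test) and by 1.68 against hearts without a pump (SE 0.32, adjusted p = 0.0195). In WT hearts the log2 difference from saline was -1.14 (SE 0.33), with an unadjusted p of 0.00206 but an adjusted p of 0.0859. All 3 WT Ang/PE hearts and 1 of the 6 WT saline hearts have Xist, and with Xist as a covariate this WT difference was -0.65 (adjusted p = 0.407). With only the compared groups in the fit it was -1.13 (adjusted p = 0.00405). The difference between the genotypes' responses, -0.91 on the log2 scale, was not called (adjusted p = 0.369). Among hearts with Xist, the 7 Ang/PE hearts had 1.55 to 2.79 CPM and the 6 others 3.15 to 6.18 CPM, without overlap. In MCT1KO, with Xist as a covariate the difference was -1.19 from hearts without a pump (adjusted p = 0.226) and -1.90 from saline (adjusted p = 0.00248). With only the hearts that have Xist, the difference from saline was -1.30 with an adjusted p of 0.106. That fit also leaves out MCT1KO saline replicate 4, which has no Xist.

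**Figure D2:**
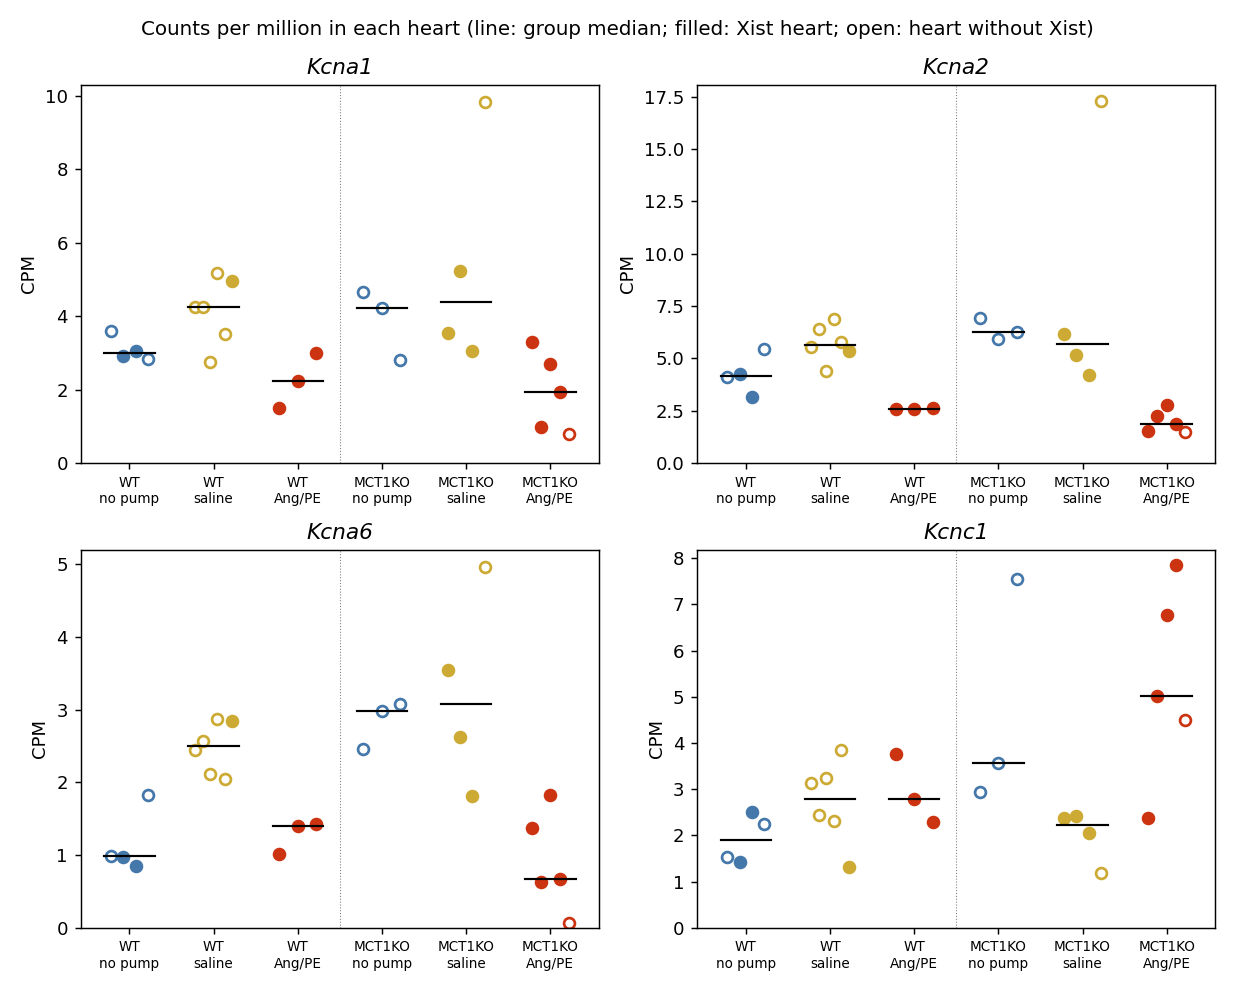
CPM of Kcna1, Kcna2, Kcna6 and Kcnc1 in each of the 25 hearts by group, with the group median as a line; filled points are hearts with Xist above 100 CPM and open points the others. For Kcna2 the 8 Ang/PE hearts (1.5 to 2.79 CPM) lie below the 17 others (3.15 to 17.3 CPM).

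The Kcna2 value of 17.3 CPM belonged to MCT1KO saline replicate 4, the heart with the most atrial and adipocyte RNA. Without that heart the difference from saline was -1.39 with an adjusted p of 0.00594, and it was the 1 call left of the 4. With the atrial and adipocyte scores as covariates the difference from saline was -0.86 (adjusted p = 0.828), while the difference from hearts without a pump, where both groups have almost none of that RNA, was -1.87 (adjusted p = 0.00101). The call against hearts without a pump was lost on leaving out MCT1KO no pump replicate 1 (adjusted p = 0.0556), replicate 2 (0.0699) or MCT1KO Ang/PE replicate 5 (0.053), at log2 differences between -1.73 and -1.58.

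Kcna1 (ENSMUSG00000047976), an axonal channel gene, had 3.06, 3.54, 5.24 and 9.85 CPM in the MCT1KO saline hearts and 0.780, 0.978, 1.94, 2.71 and 3.29 CPM in the MCT1KO Ang/PE hearts. The groups overlapped, with 1 Ang/PE heart above the lowest saline heart. MCT1KO hearts without a pump had 2.82, 4.22 and 4.66 CPM. In WT, Kcna1 had 2.84, 2.92, 3.05 and 3.61 CPM without a pump, 2.76 to 5.19 CPM around a median of 4.25 with saline, and 1.49, 2.24 and 3.00 CPM with Ang/PE. Kcna1 fell by 1.52 on the log2 scale in MCT1KO Ang/PE against saline hearts (SE 0.35, adjusted p = 0.0183, edgeR). The difference was -1.06 (adjusted p = 0.141) without MCT1KO saline replicate 4, which held the highest value, -0.85 (adjusted p = 0.385) with only the hearts that have Xist, and -0.40 (adjusted p = 0.91) with the atrial and adipocyte scores as covariates. With Xist as a covariate on all hearts the difference was -1.48 (adjusted p = 0.0282).

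Kcna6 (ENSMUSG00000038077), a Shaker family gene neighbouring Kcna1, had 1.81, 2.62, 3.54 and 4.95 CPM in the MCT1KO saline hearts and 0.060, 0.628, 0.673, 1.37 and 1.83 CPM in the MCT1KO Ang/PE hearts, the lowest of which rests on 1 count. All but 1 Ang/PE heart lay below the lowest saline heart. The 3 MCT1KO hearts without a pump had 2.45, 2.99 and 3.08 CPM, all above the Ang/PE hearts. In WT the gene had 0.849, 0.974, 0.993 and 1.82 CPM without a pump, 2.04 to 2.88 CPM around a median of 2.51 with saline and 1.01, 1.40 and 1.43 CPM with Ang/PE, so that the WT Ang/PE and no pump hearts overlapped. Kcna6 fell by 1.88 on the log2 scale in MCT1KO Ang/PE against saline hearts (SE 0.40, adjusted p = 0.0141, edgeR), and its difference from MCT1KO hearts without a pump was -1.69 (adjusted p = 0.0730). Without MCT1KO saline replicate 4 the first of these was -1.61 with an adjusted p of 0.0770, it was -1.28 (adjusted p = 0.216) with only the hearts that have Xist, and with the atrial and adipocyte scores as covariates it was -1.02 (adjusted p = 0.849). With Xist as a covariate on all hearts the difference from saline was -1.87 (adjusted p = 0.0195).

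Kcnc1 (ENSMUSG00000058975) went the other way. It had 1.18, 2.06, 2.38 and 2.42 CPM in the MCT1KO saline hearts and 2.38, 4.50, 5.03, 6.77 and 7.85 CPM in the MCT1KO Ang/PE hearts, where 4 of 5 hearts lay above every saline heart. The MCT1KO hearts without a pump had 2.94, 3.57 and 7.55 CPM, within the range of the Ang/PE hearts. WT hearts had 1.41, 1.53, 2.25 and 2.5 CPM without a pump, 1.32 to 3.86 CPM around a median of 2.79 with saline and 2.29, 2.80 and 3.76 CPM with Ang/PE. Kcnc1 rose by 1.40 on the log2 scale in MCT1KO Ang/PE against saline hearts (SE 0.34, adjusted p = 0.0227, edgeR), and its difference in WT was 0.12. The difference between the genotypes' responses, 1.28 on the log2 scale, was not called. The call was lost on leaving out MCT1KO saline replicate 4 (1.21, adjusted p = 0.128), MCT1KO Ang/PE replicate 3 (1.29, 0.0511) or replicate 4 (1.21, 0.0622), and with only the hearts that have Xist (1.26, 0.215). The value was 0.77 (adjusted p = 0.856) with the atrial and adipocyte scores as covariates and 1.40 (adjusted p = 0.0293) with Xist as a covariate.

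Several other contents of the hearts moved with these calls. In MCT1KO Ang/PE against saline hearts, 4 of 4 atrial, 5 of 5 adipocyte and 3 of 4 tested Schwann cell markers were lower. The 5 Schwann cell markers, of the glia that wrap axons, summed to between 18.1 and 45.5 CPM in MCT1KO saline hearts and between 11.3 and 12.8 CPM in MCT1KO Ang/PE hearts, where Sox10 was below 1 CPM. Against hearts without a pump of the same genotype, at 14.2 to 19.1 CPM, none of the 4 tested Schwann cell markers was called. The 5 autonomic neuron markers summed to at most 8.49 CPM in any heart. A circadian clock score, the mean of clock output genes less that of the opposite phase, lay between -0.43 and 0.61 in the 5 MCT1KO Ang/PE hearts and between 0.67 and 2.94 in the 20 others. The part of atrial, fat, nerve and clock differences in the 4 calls was not tested beyond the values above. With the clock score as a covariate none of the 29 genes was called in either comparison, and the Kcna2 differences were -2.46 from saline (adjusted p = 0.231) and -2.11 from no pump (adjusted p = 0.412). Both were larger in size than in the main fit. As the clock score of the MCT1KO Ang/PE hearts overlapped that of no other heart, this fit cannot tell the clock from the group. With only the 9 hearts of the compared groups in the fit, the Kcna2 difference from saline was -2.06 with an adjusted p of 0.149, and none of the 29 was called.

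The remaining 25 tested genes were not called by edgeR in any of the 11 comparisons, and the values that follow are differences that did not pass that test. DESeq2 called Kcnd2 and Kcnj2 lower and Kcne1 and Hcn2 higher in MCT1KO Ang/PE against no pump hearts and Hcn2 higher in MCT1KO Ang/PE against saline hearts, and its calls in the other comparisons are named with them. The share of all genes called by DESeq2 is not given here, so its calls cannot be set against that share. Over the 29 genes, the median log2 difference in MCT1KO Ang/PE against saline hearts was -0.04, beside -0.01 over all tested genes, and 9 genes had an unadjusted p under 0.05, beside 20.4% of all genes. In WT Ang/PE against saline hearts edgeR called none of the 29, beside 0.017% of all genes by the same test. DESeq2 called 2 (Kcna2 and Kcnj2, both lower). The WT median was -0.31 (all genes -0.01), and 13 of 29 had an unadjusted p under 0.05, beside 19.1%. This WT median was -0.38 without WT Ang/PE replicate 1 and -0.20 without WT Ang/PE replicate 3. In MCT1KO Ang/PE against no pump hearts 12 of 29 did, beside 13.1%, with a median of -0.04 (all genes 0.00). In WT Ang/PE against no pump hearts 1 of 29 did, beside 9.02%, with a median of 0.01 (all genes -0.01), and none was called by either tool (0% of all genes by edgeR). Comparisons that use the same Ang/PE hearts are not independent of each other. As the genes were chosen with earlier results of these data known, these counts do not test the set against all genes.

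**Figure D3:**
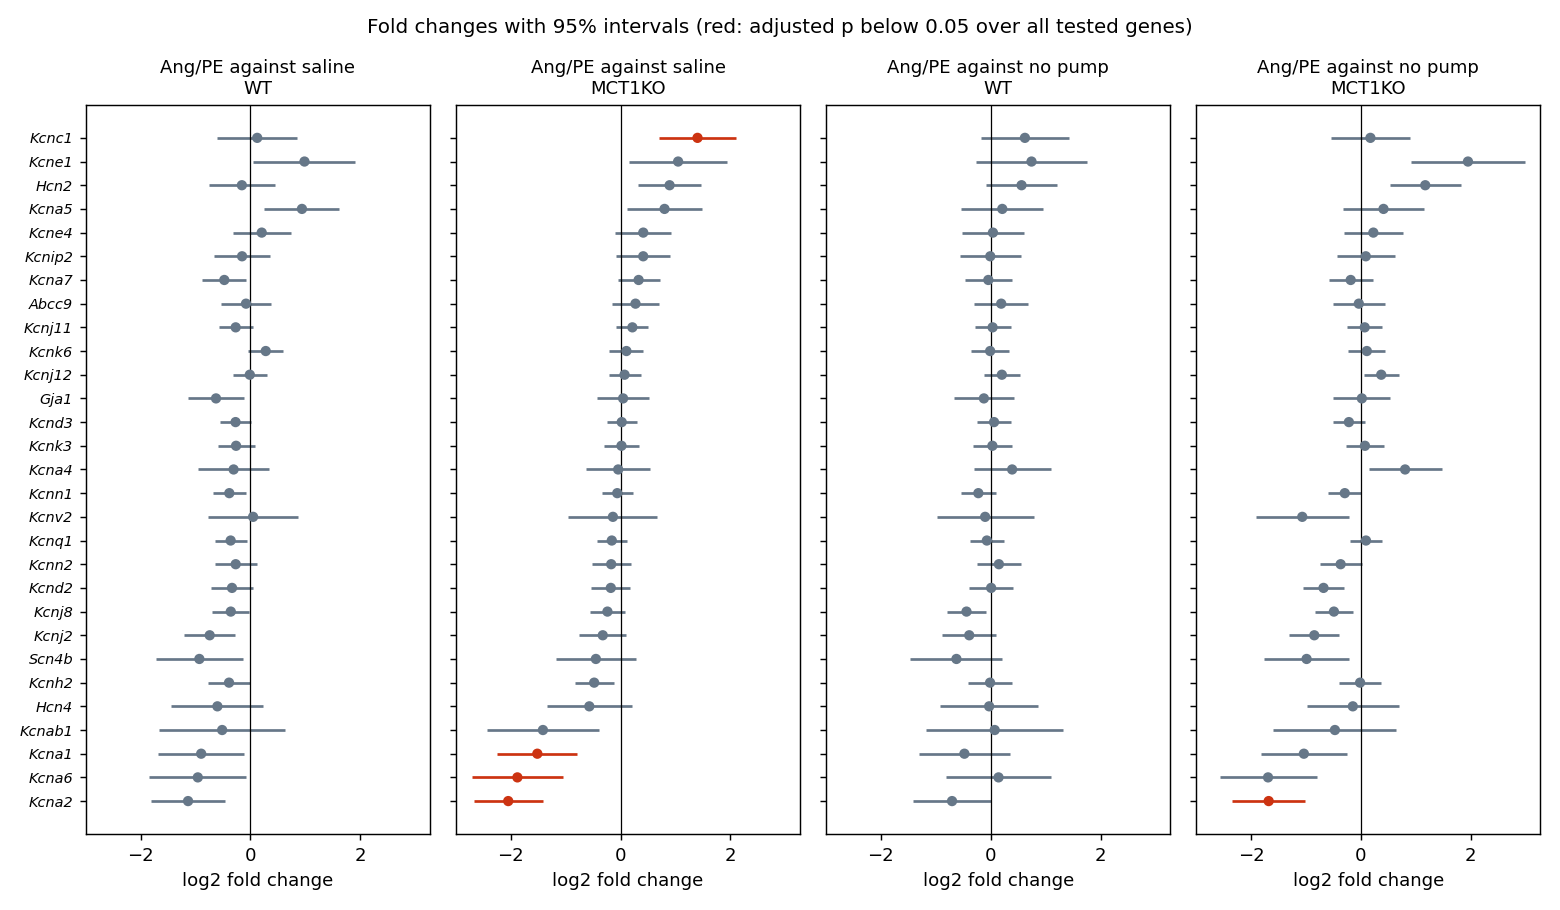
Log2 fold change of the 29 tested genes with 95% intervals in 4 comparisons of Ang/PE hearts, ordered by the second panel, with calls in red. Kcna2, Kcna6 and Kcna1 lie at the bottom (-2.05, -1.88 and -1.52 in the second panel) and Kcnc1 at the top (1.40).

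Among the pore genes of the transient outward current, Kcnd2 was the most abundant per kilobase at 6.61 CPM per kilobase, followed by Kcnd3 at 4.20 and Kcna4 at 0.864. Kcnd2 had 34.3, 43.4 and 47.4 CPM in MCT1KO hearts without a pump and 19.3, 19.9, 23.9, 33.6 and 33.7 CPM in those with Ang/PE, all of the latter lower. The log2 difference was -0.68 (SE 0.18, adjusted p = 0.0912), and in WT it was 0.01. None of these MCT1KO hearts without a pump has Xist, and 4 of the 5 with Ang/PE do. Among hearts with Xist, Kcnd2 had 19.3 to 36.1 CPM (median 33.1) in the 7 with Ang/PE. The 6 others with Xist had 24.2 to 37.5 CPM (median 30.5). The 11 hearts with neither Xist nor Ang/PE had a median of 40.4 CPM. Kcnd3 differed by 0.33 between WT saline and no pump hearts (adjusted p = 0.104) and by less in the other pairwise comparisons. Kcna4, a slowly recovering transient outward channel gene, had 2.60 to 3.44 CPM in MCT1KO hearts without a pump and 4.02 to 8.45 CPM with Ang/PE, a difference of 0.81 (adjusted p = 0.264), and 1 MCT1KO saline heart, the one with the least atrial RNA, lay at 2.19 CPM while its 3 fellows lay at 6.35 to 6.87 CPM. The accessory genes Kcnip2 and Kcne4 had no unadjusted p under 0.05 in any comparison. Kcnip2, which brings the Kcnd channels to the membrane, had 152 to 247 CPM in MCT1KO Ang/PE and 61.2 to 211 CPM in MCT1KO saline hearts.

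Of the delayed rectifier genes, Kcna5, the pore of the ultrarapid current, was the most abundant per kilobase, and its differences from saline, which were not called, were positive where those of its neighbours Kcna1 and Kcna6 were negative. WT hearts with Ang/PE had 44.6, 47.4 and 54.5 CPM, all above the WT saline hearts at 22.8 to 30.4 CPM, and overlapped WT hearts without a pump at 25.5 to 55.2 CPM. The log2 difference from saline was 0.94 in WT (SE 0.33, adjusted p = 0.140) and 0.80 in MCT1KO (adjusted p = 0.168). Kcna7, a muscle Shaker family gene, had an unadjusted p under 0.05 in 6 of the 11 comparisons. Its largest difference between 2 groups was that of the genotypes under saline, with 2.36 to 4.52 CPM in MCT1KO and 4.65 to 7.63 CPM in WT hearts, without overlap (log2 difference -0.71, SE 0.18, adjusted p = 0.102). Kcnv2, a silent subunit that modifies other delayed rectifiers, had 10.9 ± 6.67 CPM (SD, n = 5) with Ang/PE and 22.7 ± 4.79 CPM (SD, n = 3) without a pump in MCT1KO hearts (log2 difference -1.07, adjusted p = 0.246). Kcnab1, a cytosolic beta subunit, lay at 9.73 CPM in MCT1KO saline replicate 4 and at 0.901 to 2.77 CPM in all other hearts.

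Among the genes of the rapid and slow delayed rectifiers, Kcnh2 had 88.5 to 145 CPM in MCT1KO saline and 82.9 to 106 CPM in MCT1KO Ang/PE hearts (log2 difference -0.48, SE 0.17, adjusted p = 0.109). Its WT difference was -0.39 (adjusted p = 0.254). Kcnq1 differed by -0.36 from saline in WT Ang/PE hearts (adjusted p = 0.174), and its reads could be mixed with those of the overlapping antisense gene Kcnq1ot1 if strand was not used in counting, which is not given in the sources used here. Kcne1, the single-span subunit that slows Kcnq1 channels, had 2.46, 2.80 and 4.74 CPM in MCT1KO hearts without a pump and 6.54, 8.23, 8.44, 20.1 and 21.5 CPM with Ang/PE. All Ang/PE values were higher, with a log2 difference of 1.95 (SE 0.50, adjusted p = 0.0821). In WT the Ang/PE hearts had 5.94, 6.92 and 9.72 CPM against 2.89 to 5.44 CPM with saline, a difference of 0.98 (adjusted p = 0.236), and they overlapped the WT hearts without a pump at 3.32 to 7.22 CPM.

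For the inward rectifiers, Kcnj2, which carries most of the resting potassium conductance in ventricle, had 33.2, 49.0 and 55.1 CPM in WT Ang/PE hearts, all below the WT saline hearts at 66.5 to 92.5 CPM (log2 difference -0.74, SE 0.22, adjusted p = 0.0945). In MCT1KO it had 30.8, 44.8, 46.2, 53.9 and 56.6 CPM with Ang/PE and 65.4, 78.7 and 107 CPM without a pump, again without overlap (-0.85, SE 0.22, adjusted p = 0.0821). Its difference from saline in MCT1KO was -0.32 (adjusted p = 0.388). Kcnj12, a partner of Kcnj2 in the same current, was 0.37 higher in MCT1KO Ang/PE than no pump hearts on the log2 scale (adjusted p = 0.288). Of the ATP-sensitive channel genes, the vascular pore gene Kcnj8 had 17.4 to 26.7 CPM in MCT1KO Ang/PE and 29.5 to 37.9 CPM in MCT1KO no pump hearts (-0.49, adjusted p = 0.175), and 22.7 to 28.7 against 33.3 to 41.4 CPM in WT (-0.44, adjusted p = 0.475). Kcnj11 differed by at most 0.30 on the log2 scale in every pairwise comparison, and Abcc9 had no unadjusted p under 0.05.

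Neither tested tandem-pore gene had an unadjusted p under 0.05 in any comparison. Kcnk3, which carries a pH-sensitive background current, had group means between 283 and 347 CPM, and Kcnk6 had the smallest ratio of highest to lowest group mean of the 29 at 1.22. Over the 29 genes this ratio was at most 1.5 for 11 genes, between 1.5 and 2 for 7 and above 2 for 11, with Kcna2 at the top at 4.12. Kcnn2, a small-conductance calcium-activated channel gene, had 21.1, 27.4 and 31.0 CPM in MCT1KO and 12.6 to 19.7 CPM in WT hearts without a pump, without overlap (log2 difference 0.64, SE 0.19, adjusted p = 0.227). Its relative Kcnn1 had 11.1 to 13.5 CPM in WT Ang/PE and 12.9 to 17.7 CPM in WT saline hearts (-0.38, adjusted p = 0.162).

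Of the pacemaker and sodium channel genes, Hcn2 had 15.3, 19.3 and 26.1 CPM in MCT1KO hearts without a pump and 29.8, 43.5, 46.6, 50.9 and 57.8 CPM with Ang/PE, all of the latter higher. The log2 difference was 1.17 (SE 0.31, adjusted p = 0.0909), and against MCT1KO saline hearts, at 10.7, 17.2, 34.5 and 36.0 CPM, it was 0.89 (SE 0.28, adjusted p = 0.0687). In WT the Ang/PE hearts had 26.4, 31.1 and 32.5 CPM, within or near the saline range of 28.5 to 36.2 CPM, and the difference between the genotypes' responses was 1.05 (adjusted p = 0.309). Hcn4, the main sinus node pacemaker gene, had no unadjusted p under 0.05 in any comparison, and its highest value, 40.8 CPM, was in MCT1KO saline replicate 4. Scn4b had 27.8, 31.2 and 44.6 CPM in WT Ang/PE hearts, all below WT saline hearts at 51.9 to 83.3 CPM (-0.93, SE 0.38, adjusted p = 0.195). Gja1 had 248 to 470 CPM in WT Ang/PE against 481 to 647 CPM in WT saline hearts, without overlap (-0.63, adjusted p = 0.178). Its MCT1KO difference was 0.05, and the difference between the genotypes' responses was 0.67 (adjusted p = 0.385, edgeR).

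**Figure D4:**
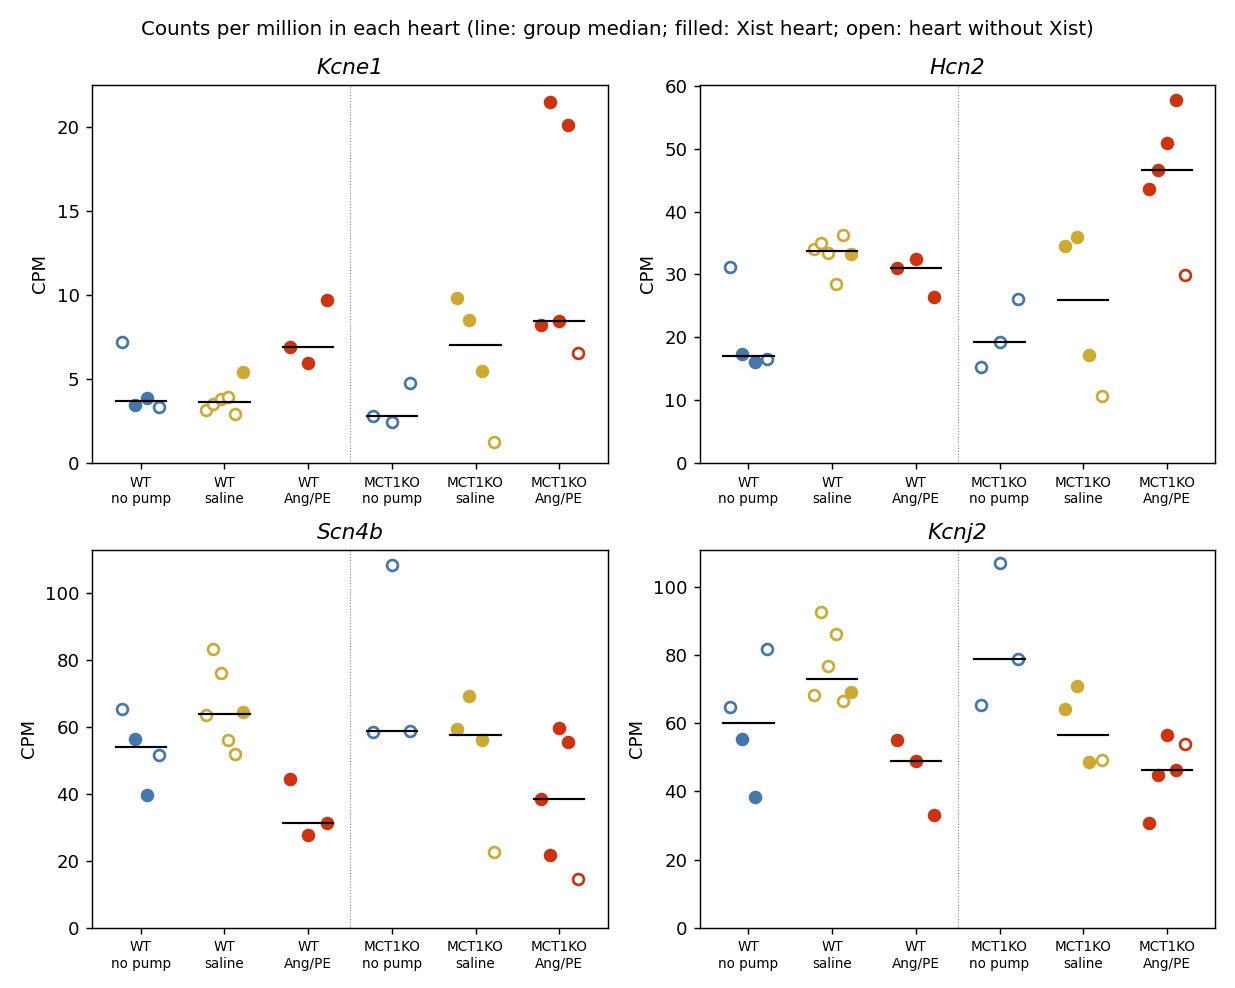
CPM of Kcne1, Hcn2, Scn4b and Kcnj2 in each of the 25 hearts by group, with the group median as a line; filled points are hearts with Xist above 100 CPM and open points the others. Hcn2 in MCT1KO Ang/PE hearts lies at 29.8 to 57.8 CPM against 15.3 to 26.1 CPM without a pump, a difference that edgeR did not call and DESeq2 did.

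Saline against no pump and the genotype label gave no call among the 29 genes by edgeR. In WT saline against no pump hearts, where 6.61% of all genes were called, 23 of 29 genes had a positive difference, the median was 0.33 (all genes 0.00) and 12 had an unadjusted p under 0.05, beside 24.3% of all genes. The smallest adjusted p was that of Kcna6 (1.10, SE 0.38, adjusted p = 0.0763), with all 6 saline hearts above all 4 others. It was the 1 gene of the 29 whose groups did not overlap (1 higher, beside 4.1% of all genes, and 0 lower, beside 6.22%), and DESeq2 called it and Hcn2 higher. In this comparison the 4 atrial markers and 3 of 6 pericyte markers were called higher and 1 of 5 leukocyte markers lower. The pericyte markers were mixed, as another 2 of the 6 were lower at an unadjusted p under 0.05. The pericyte markers summed to between 775 and 943 CPM in WT saline and between 905 and 1042 CPM in WT no pump hearts, and the leukocyte markers to between 69.6 and 99.6 CPM and between 79.1 and 139 CPM. The part of these cells in the channel values was not tested beyond the fit with atrial and adipocyte covariates, in which none of the 29 was called and the median was 0.20. In MCT1KO saline against no pump hearts 0.00566% of all genes were called, and 7 of 29 had an unadjusted p under 0.05, beside 12.1%. Kcnc1 had the smallest adjusted p there (-1.23, adjusted p = 0.183), with every saline heart below every heart without a pump. Kcnc1, Kcnd2 and Kcnd3 were the 3 genes without overlap there, all lower, beside 3.93% of all genes (0 higher, beside 4.67%), and DESeq2 called none of the 29.

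Between genotypes, none of the 29 genes was called by edgeR without a pump, under saline or under Ang/PE, beside 0% of all genes in each, and DESeq2 called 1, Kcna7, lower under saline. Without a pump, 5 of 29 genes had an unadjusted p under 0.05, beside 12.2% of all genes, and all 5 were higher in MCT1KO: Kcna6 (1.29), Kcnc1 (1.29), Kcnn2 (0.64), Kcnj2 (0.48) and Kcnd3 (0.30), on the log2 scale. The groups did not overlap for 4 genes, Kcna2, Kcna6, Kcnc1 and Kcnn2, all higher, beside 5.07% of all genes (0 lower, beside 6.47%). Under saline 6 did, beside 17%, and the groups did not overlap for Kcnd2 and Kcna7, both lower (2 genes, beside 1.82% of all genes, and 0 higher, beside 1.07%). Under Ang/PE 4 did, beside 6.92%: Kcnc1 (0.84), Kcna4 (0.69), Gja1 (0.60) and Kcnq1 (0.32). Of these only Kcna4 had no overlap (1 higher, beside 3% of all genes, and 0 lower, beside 2.1%). None of the 29 was called for a genotype difference in the response to Ang/PE against saline (0% of all genes; 5 of 29 with an unadjusted p under 0.05, beside 13.5%) or to saline against no pump (0.00566%; 7 of 29, beside 17.2%). Of the 7 genes in the latter, Kcnc1 (-1.73), Kcna7 (-0.95), Kcnj2 (-0.87) and Kcnd2 (-0.84) had the largest differences, at adjusted p between 0.132 and 0.161. Kcne1 differed by 1.14 with a larger error (SE 0.66, adjusted p = 0.374), and DESeq2 called Kcnc1, Kcna7 and Kcnd2 lower.

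**Figure D5:**
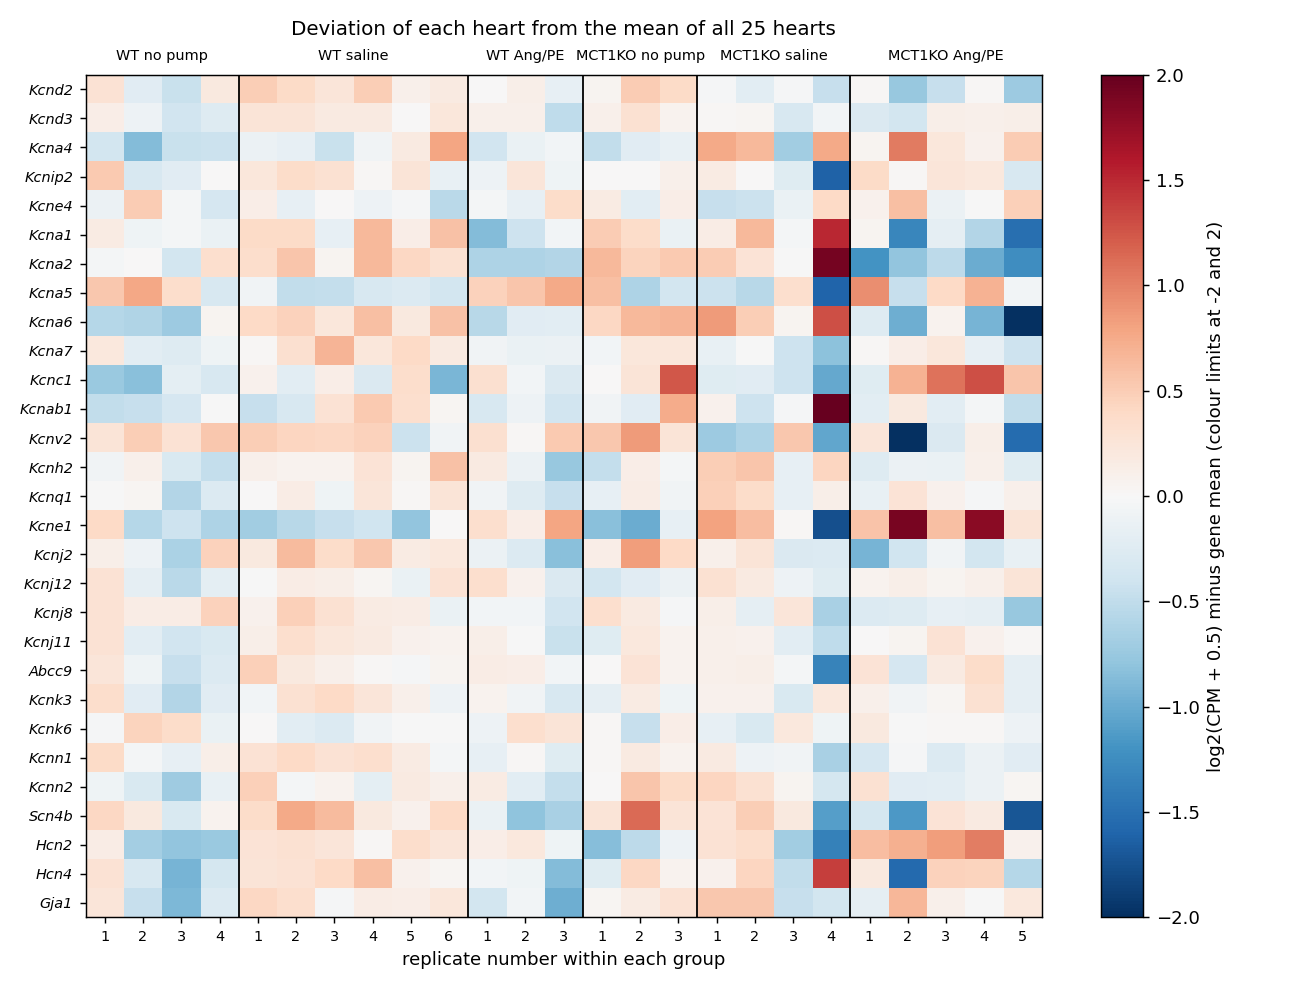
Deviation of each heart from the mean of all 25 hearts for the 29 tested genes, as log2(CPM + 0.5), in columns by group and replicate. MCT1KO saline replicate 4 is the lowest heart of its group for 15 genes and the highest for 7, and MCT1KO no pump replicate 1 is the lowest of its 3 for 19.

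Hearts of 1 group often deviated together over the genes. MCT1KO saline replicate 4 was the lowest of its 4 hearts for 15 of 29 genes, among them Kcnip2, Abcc9, Kcna5 and Hcn2, and the highest for 7, among them Kcna1, Kcna2, Kcna6, Kcnab1 and Hcn4. WT no pump replicate 1 was the highest of its 4 hearts for 17 genes, and WT no pump replicate 3 the lowest for 18. Of the groups of 3 hearts, MCT1KO no pump replicate 1 was the lowest for 19 genes and WT Ang/PE replicate 3 for 17. Without WT no pump replicate 1, 5 of the 29 genes were called higher in WT saline against no pump hearts. In the main fit edgeR called 6.61% of all genes in this comparison, and the share without that heart is not given here.

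A wider list of channel genes that are not among the 30 was tested in the same fit, 50 genes with enough counts, together with 20 regulators and partners of channels. In MCT1KO Ang/PE against saline hearts 5 of 50 were lower and 1 was higher, beside 4.46% of all genes. Among the lower genes were Gja5, the atrial and conduction system connexin (-2.58), Cacna1d, an L-type calcium channel gene of atrium and sinus node (-1.82), and Kcnj3 (-1.61) and Kcnj5 (-0.84), the atrial acetylcholine-gated pair. The sodium-calcium exchanger gene Slc8a1 was higher (0.44), with no overlap between the groups. Cacna1d, Gja5, Kcnj3 and Kcnj5 each had their highest value in MCT1KO saline replicate 4, at 32.3, 107, 465 and 172 CPM. Of the 20 regulators 2 were lower, Fgf12 (-5.79) and Tbx5 (-1.53), and 1 was higher. Tbx5 had 152 CPM in MCT1KO saline replicate 4 and 17.4 to 51.3 CPM in the other hearts of that group. Against MCT1KO hearts without a pump 2 of 50 were lower, beside 0.254% of all genes, among them Kcnk2, a stretch-sensitive tandem-pore channel gene (-1.01), without overlap. The MCT1KO hearts without a pump had 4.04 to 5.30 CPM of Kcnk2 and the MCT1KO Ang/PE hearts 1.87 to 2.79 CPM. Hearts of the remaining groups had 2.06 to 3.82 CPM, below every MCT1KO heart without a pump. In WT saline against no pump hearts 2 of 50 were higher, among them Cacna1g (0.88), Kcnk13 was lower (-1.18), and 5 of 20 regulators were higher, including Nedd4l (0.49), Ank3 (0.43) and Nkx2-5 (0.52). There 6.61% of all genes were called in either direction. No gene of either list was called in the other 8 comparisons.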

How the data were processed

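RNA of 25 mouse hearts was depleted of ribosomal RNA and made into stranded libraries, per the labels' protocols. The authors deposited raw read counts per Ensembl gene. The submitters' processing notes name cutadapt 1.16, STAR 2.7.9a, featureCounts 1.6.3, DESeq2 1.42.1 and the build GRCm39, while the annotation and the strand setting are not given in the sources used here. Groups come from the titles and characteristics. Of 56941 genes, 17682 passed edgeR's filterByExpr and were fitted in 1 model of 6 groups (edgeR 4.0.16 in R 4.3.3, TMM scaling, robust quasi-likelihood test, 19 residual degrees of freedom), with 11 comparisons, Benjamini-Hochberg adjustment over all tested genes and calls at an adjusted p below 0.05. Totals of 12216704 to 24880683 counts limit the precision of genes near 1 CPM. On simulated counts for MCT1KO Ang/PE against saline hearts with 17682 genes, 81% of the genes changed 2-fold and 100% of those changed 4-fold were called. The simulated counts also gave 9 false calls. The levels and spread that were simulated are not given here, so these shares do not give the power for the channel genes. In the real comparison Kcna1, Kcna2, Kcna6 and Kcnc1 were called. Kcnab1 (-1.41 on the log2 scale) and Kcne1 (1.05) also differed more than 2-fold but were not called.

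The members and the lists of other channels, regulators and markers were chosen with earlier results of these data known. Full values were given for members called in any comparison, and values for those with an unadjusted p under 0.05 in 3 or more comparisons and for the most abundant member per transcript length of each role. Replicate numbers in the titles were not taken to pair hearts: the mean correlation of deviations over 52 same-numbered pairs was 0.0094. No pair of libraries within a group agreed within sampling noise (smallest chi-square per degree of freedom 3.33 over 43 pairs). Transcript lengths and gene overlaps came from GENCODE M21 (GRCm38), used for no coordinates, and promoters from RefSeq. Alternatives were RLE scaling, DESeq2 1.42.0, no low-count filter, only the compared groups, a replicate block, covariates for Xist, atrial and adipocyte content or the clock, and each heart left out. GC and length offsets and a fit of only hearts with Xist were added after seeing the data. A few genes of the wider lists are not reported here.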

Additional observations from a re-analysis of the deposited data

Results flagged for a closer look

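In groups of 4 to 10 hearts, the highest or lowest heart of each of the 29 tested genes was set against the rest of its group on the log2 CPM scale by Dixon's 95% criterion. Of 116 such groups 8 passed, and chance alone flags about 1 in 20, or 5.8 of 116.

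Abcc9 was low in MCT1KO saline replicate 4 at 7.83, with its 3 fellows at 9.13 to 9.28. Hcn2 was high in WT no pump replicate 1 at 4.96, against 4.01 to 4.12 in the other 3 hearts, and low in WT saline replicate 4 at 4.83, against 5.06 to 5.18. Kcna4 was low in MCT1KO saline replicate 3 at 1.13, against 2.67 to 2.78, and in WT no pump replicate 2 at 0.93, against 1.43 to 1.53. Kcnd3 was low in WT saline replicate 5 at 4.91, against 5.07 to 5.16. Kcnj11 was high in MCT1KO Ang/PE replicate 3 at 7.55, against 7.27 to 7.34, and Kcnj8 was low in MCT1KO Ang/PE replicate 5 at 4.12, against 4.63 to 4.74. The cause of these values was not tested.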

How the results depend on the processing

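Counts of called genes among the 29 that moved are given here, and the cause of each move was not tested. The shares of all genes called under these alternatives are not given here, so the counts cannot be set against them. For MCT1KO Ang/PE against saline hearts (4 calls) the count was 0 with atrial and adipocyte covariates, with the clock covariate, with only the groups compared and with only hearts that have Xist, and 1 to 7 on leaving out 1 heart (1, Kcna2, without MCT1KO saline replicate 4, and 7 without replicate 3). For MCT1KO Ang/PE against no pump hearts (1 call) it was 0 with the Xist or the clock covariate, 2 with atrial and adipocyte covariates or GC and length offsets, 6 by DESeq2 (Kcna2, Kcna6, Kcnd2 and Kcnj2 lower, Kcne1 and Hcn2 higher), and 0 to 2 on leaving out 1 heart. Comparisons with 0 calls gave 6 (only the groups compared: Kcna2, Kcna6, Kcnj2 and Scn4b lower, Kcna5 and Kcne1 higher) and 2 (DESeq2) for WT Ang/PE against saline, 4 (only the groups compared), 2 (DESeq2) and 0 to 5 (leaving out 1 heart) for WT saline against no pump, 0 to 1 on leaving out 1 heart for MCT1KO saline against no pump, 1 by DESeq2 for the genotypes under saline, and 3 by DESeq2 and 0 to 2 on leaving out 1 heart for the genotype difference in the response to saline. The other counts, and all counts under RLE scaling and without the low-count filter, were within 1.5 times the main count. The median log2 difference of the 29 genes moved in 7 cases: in WT Ang/PE against saline (-0.31) it was -0.21 with atrial and adipocyte covariates, -0.38 without WT Ang/PE replicate 1 and -0.20 without replicate 3, in WT Ang/PE against no pump (0.01) it was 0.20 with only hearts that have Xist, in WT saline against no pump (0.33) it was 0.20 with atrial and adipocyte covariates and 0.19 with GC and length offsets, and for the genotype difference in the response to saline (-0.39) it was -0.24 with those covariates.

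The replicate block changed no count (4 and 1 calls) and no call among 81 gene results. Values that changed sign were not called: Kcnab1 in MCT1KO Ang/PE against saline (0.48 with atrial and adipocyte covariates, 0.042 with only hearts that have Xist) and between genotypes under saline (-0.19 with those covariates, -0.26 to 1.39 on leaving out 1 heart, the lowest without MCT1KO saline replicate 4), Kcna4 in MCT1KO saline against no pump (-0.14 with those covariates) and the Kcna2 genotype difference in the response to Ang/PE (0.22 with those covariates).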
